A study of Rattus norvegicus with 12 samples.

Results

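Tumor and normal rat liver cells were compared after 18 hours without L-arginine, on the 6 arginine-deficient arrays among the 12 of the series, which were taken by their labelled cell line and medium. Normal cells were WB-F344, a diploid epithelial line derived from the liver of a male adult rat of the Fischer-344 strain (3 arrays). Tumor cells were GP7TB, a neoplastic line of clonal origin obtained after 11 brief exposures of WB-F344 cells to N-methyl-N-Nitro-N-nitrosoguanidine at 5 ug/ml (3 arrays), which forms tumors in syngeneic rats. Both lines were grown to about 80% confluence and moved to Chee's Essential Medium lacking L-Arginine HCl with 5% fetal bovine serum, which was not dialyzed, so arginine was depleted and not wholly removed. Each array measured total RNA of 1 separate culture, by the study's methods. Each cell type is thus a single line, and replicate cultures measure the spread of that line and not that of normal or transformed liver cells in general. The remaining 6 arrays held the same lines in medium with 0.168 g/l arginine and are used here only where the difference without arginine was set against that with it.

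Cell line coincided with scan day. The 3 tumor arrays were scanned on a single day that holds no normal array, normal arrays 2 and 4 on another day and normal array 6 on yet another, and no chip lot holds both lines, so cell line, scan day and chip lot cannot be told apart in any value below. By the run records, the cultures of tumor arrays 8 and 12 were trypsinised before they entered the medium and that of tumor array 10 was not. Values are listed throughout in the order of arrays 2, 4 and 6 for normal cells and 8, 10 and 12 for tumor cells.

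Arginine is taken up by cationic amino acid carriers, is split by arginase into urea and ornithine, and through ornithine feeds the polyamines that dividing cells need. When an amino acid runs short, uncharged tRNA activates the kinase GCN2, and the transcription factor ATF4 then raises genes for amino acid synthesis, transport and tRNA charging. WB-F344 cells are regarded as liver progenitor-like epithelial cells, and chemical transformation of such cells is known for altered matrix production, cytoskeleton, growth factor output and detoxifying enzymes.

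The array, Affymetrix RAE230A, holds 15923 probe sets, and the value of each is a Microarray Suite 5.0 signal on a linear scale. A probe set was counted as expressed on an array when its signal reached the highest 54% of that array, a threshold of 147 to 170 on these 6 arrays. It was tested when this held on at least 3 of the 6, which left 9019 probe sets and 6743 genes. Log2 signals over these probe sets correlated at 0.932 to 0.941 among normal arrays, at 0.929 to 0.972 among tumor arrays and at 0.658 to 0.702 between the lines, as a description over probe sets that are not independent. For the Gapdh control probe sets the 3' signal over the 5' signal, a measure of RNA integrity, was 1.01 to 1.38 in normal and 1.13 to 1.23 in tumor arrays, and for Actb 1.0 to 1.41 and 1.21 to 1.63, so the lines overlapped. Differences are log2 tumor minus normal, given as the estimate ± its standard error from limma with 3 arrays in each line, and p-values are Benjamini-Hochberg adjusted over the 9019 probe sets with a threshold of 0.05.

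Of the 9019 probe sets, 3281 passed the test (36.4%). Tumor cells were higher at 1543 (17.1%) and lower at 1738 (19.3%), and 4142 had an unadjusted p under 0.05. Counted by gene, with the brightest probe set of each, 1212 of 6743 were higher (18.0%) and 1200 lower (17.8%), and these shares are the background against which every list below is read. The median difference over all genes was 0.05. Differences were often large, since 821 probe sets were higher and 1204 lower by at least 1 on the log2 scale and 112 and 176 by at least 3. All 3 tumor signals lay above all 3 normal ones at 25.2% of probe sets and below them at 24.0%, whether or not the test was passed. In 238 of the higher probe sets all normal signals lay under the threshold and all tumor signals above it, and in 350 of the lower ones the reverse held. For such probe sets the dim line has only a bound, so the fold is given as at least the bright line's mean over the threshold of the dim arrays. The p-value beside such a fold is that of the limma fit, in which low signals were not raised to the threshold. It does not test the bound. Without tumor array 10, 2113 probe sets passed in all and 907 were higher.

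**Figure D1:**
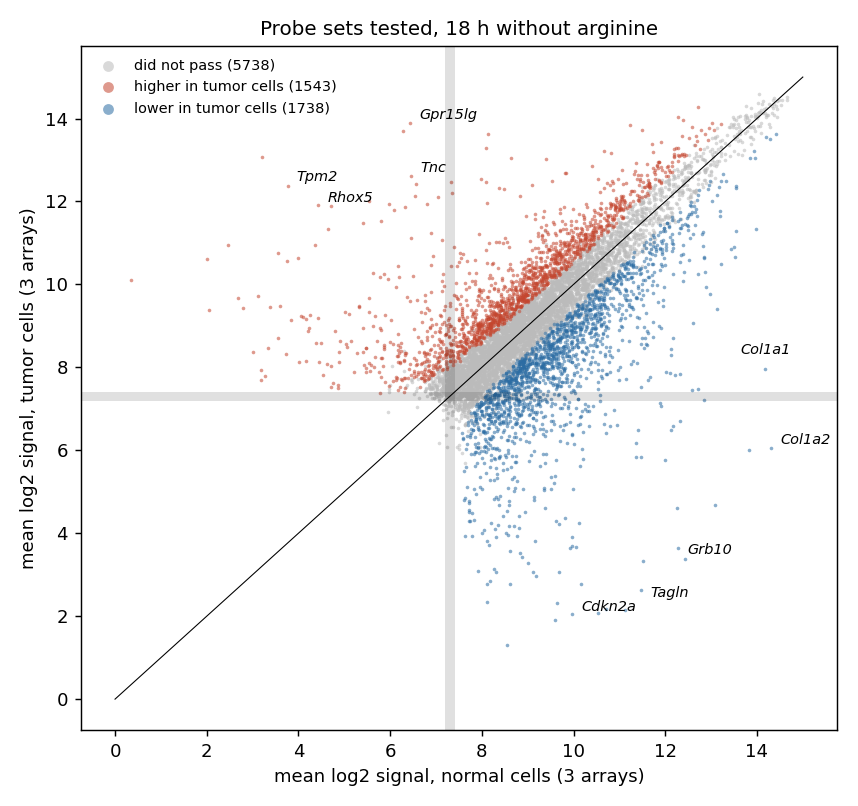
Mean log2 signal of each tested probe set in normal cells (x axis) and tumor cells (y axis), 3 arrays each, with probe sets that passed the test in red (1543 higher in tumor cells) or blue (1738 lower). The gray bands span the expressed thresholds of the 6 arrays, and points left of or below a band, such as Gpr15lg and Tagln, had low signals in one line only.

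Tagln2, Hmga1, Plin2 and Fosl1 had the largest differences in the higher direction among genes expressed on all 6 arrays. Tagln2, a small actin-binding protein, had signals of 369, 568 and 298 in normal and 7019.6, 8656 and 10207 in tumor cells, a difference of 4.43 ± 0.26 on the log2 scale (adjusted p = 3.32e-06). Hmga1, an architectural chromatin protein abundant in embryonic and transformed cells, had 502, 702 and 861 in normal and 9591, 7533 and 8096 in tumor cells, with a difference of 3.64 ± 0.23 (adjusted p = 4.75e-06). Every tumor signal of both genes was several fold above every normal signal. Plin2, which coats lipid droplets, had 514, 551 and 582 in normal and 3939.5, 4988 and 7950.3 in tumor cells (3.30 ± 0.25, adjusted p = 1.62e-05), and tumor array 12 was the highest. Fosl1, the AP-1 subunit Fra-1, had 264, 610.3 and 592 in normal cells and an almost constant 4426, 4527 and 4469.5 in tumor cells (3.29 ± 0.30, adjusted p = 4.74e-05). The rest of this group was Il3ra, the alpha chain of the interleukin-3 receptor, at 3.29, Fads3, of the fatty acid desaturase family, at 2.97, Crip2, a LIM domain protein, at 2.89, Abhd2, a serine hydrolase, at 2.83, Vps37b, of the ESCRT-I sorting complex, at 2.72, and Rab11fip5, a Rab11 effector of endosomal recycling, at 2.67.

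Among genes below the threshold in normal cells, Gpr15lg, a chemoattractant ligand of the receptor GPR15, had 107, 67.1 and 89.8 in normal and 13431, 14580.0 and 18014 in tumor cells, at least 89.9-fold higher (adjusted p = 4.15e-08). Serpine2, an inhibitor of thrombin and urokinase, had 83.1, 75 and 134 in normal and 5616, 5360.3 and 5412 in tumor cells, at least 32.2-fold higher (adjusted p = 2.58e-07). Tpm2, which encodes beta-tropomyosin, had 8.30, 4.20 and 71.8 in normal and 3295, 6009.8 and 7452 in tumor cells, at least 31.2-fold higher (adjusted p = 7.03e-05). By the rule that chose them, the genes of this group were expressed on all 3 tumor arrays and on no normal array. Il24, a cytokine of the interleukin-10 family, was at least 26.6-fold higher, Cyp3a9, a cytochrome P450, at least 24.4-fold, and Cd44, the hyaluronan receptor, at least 23.3-fold. Sncg, gamma-synuclein of neurons, had 2546, 4148 and 5649.9 in tumor cells and was at least 23.1-fold higher. Rhox5, a homeobox gene of the reproductive tract, had 66.7, 12.3 and 12.2 in normal and 3708, 3341 and 4559 in tumor cells, at least 22.7-fold higher. Ocm, the calcium buffer oncomodulin, had 16.8, 37.9 and 28.4 in normal and 2536, 4215 and 5230.1 in tumor cells and was at least 22.6-fold higher. Penk, the enkephalin precursor, was at least 22-fold higher, with 6646, 3176 and 2434 in tumor cells and the highest signal on array 8.

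On the lower side, type I collagen came first. Col1a1 and Col1a2, the chains of type I collagen, were among the brightest probe sets of normal cells. Col1a1 had 21722, 19661 and 15113 in normal and 299.9, 248 and 212 in tumor cells, a difference of -6.21 ± 0.21 (adjusted p = 8.80e-08), or 74.3-fold. Col1a2 had 25042, 22175 and 15165 in normal and 24.2, 124 and 97.6 in tumor cells, at least 129-fold lower (adjusted p = 4.75e-06). Both chains were thus bright on all normal arrays and near or under the threshold on all tumor arrays. Agtr1a, the type 1 angiotensin II receptor, had 9132, 8889.6 and 8106 in normal and 35.6, 46.8 and 10.1 in tumor cells, at least 55.1-fold lower (adjusted p = 2.68e-06). Grb10, an imprinted adaptor that dampens insulin and IGF signaling, had 4961, 5104 and 4851 in normal and 14, 13.3 and 10.4 in tumor cells, at least 31.5-fold lower (adjusted p = 1.69e-08), with the 3 normal signals close together. Igf2, a fetal growth factor that is likewise imprinted, had 2765, 6044 and 4019.6 in normal and 59.5, 33 and 80.3 in tumor cells, at least 25.8-fold lower (adjusted p = 3.32e-06). Gpc3, a heparan sulfate proteoglycan of fetal liver and many liver tumors, had 3833, 2483 and 2580.5 in normal and 7.40, 10.4 and 13.5 in tumor cells and was at least 18.4-fold lower. Tagln, the smooth muscle actin-binding protein transgelin, had 2889, 2936 and 2721 in normal and 5.80, 7.10 and 5.70 in tumor cells, at least 18-fold lower, opposite to its relative Tagln2. Armcx2, an armadillo repeat gene, was at least 14.2-fold lower, with 5.90, 5.30 and 2.80 in tumor cells. Igfbp2, an IGF-binding protein, had 15558, 1014 and 1149.5 in normal and 45.2, 50.8 and 82.8 in tumor cells, at least 16.6-fold lower (adjusted p = 0.00104), and normal array 2 was far above the other normal arrays. Among genes expressed on all 6 arrays, Krt7, a keratin of bile duct cells, was lower by 18.8-fold, Lhfpl6, a tetraspan membrane gene, by 14.9-fold, Macf1, a linker of actin and microtubules, by 14.3-fold, Myh10, nonmuscle myosin IIB, by 12.9-fold, Adamts1, a secreted protease of the ADAMTS family, by 11.7-fold, Ccn3, a matricellular protein, by 11-fold, and Arhgdib by 10.7-fold. Fhl1, a LIM protein of muscle, had nearly equal normal signals of 2022, 2070.4 and 2058 and was lower by 9.89-fold.

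**Figure D2:**
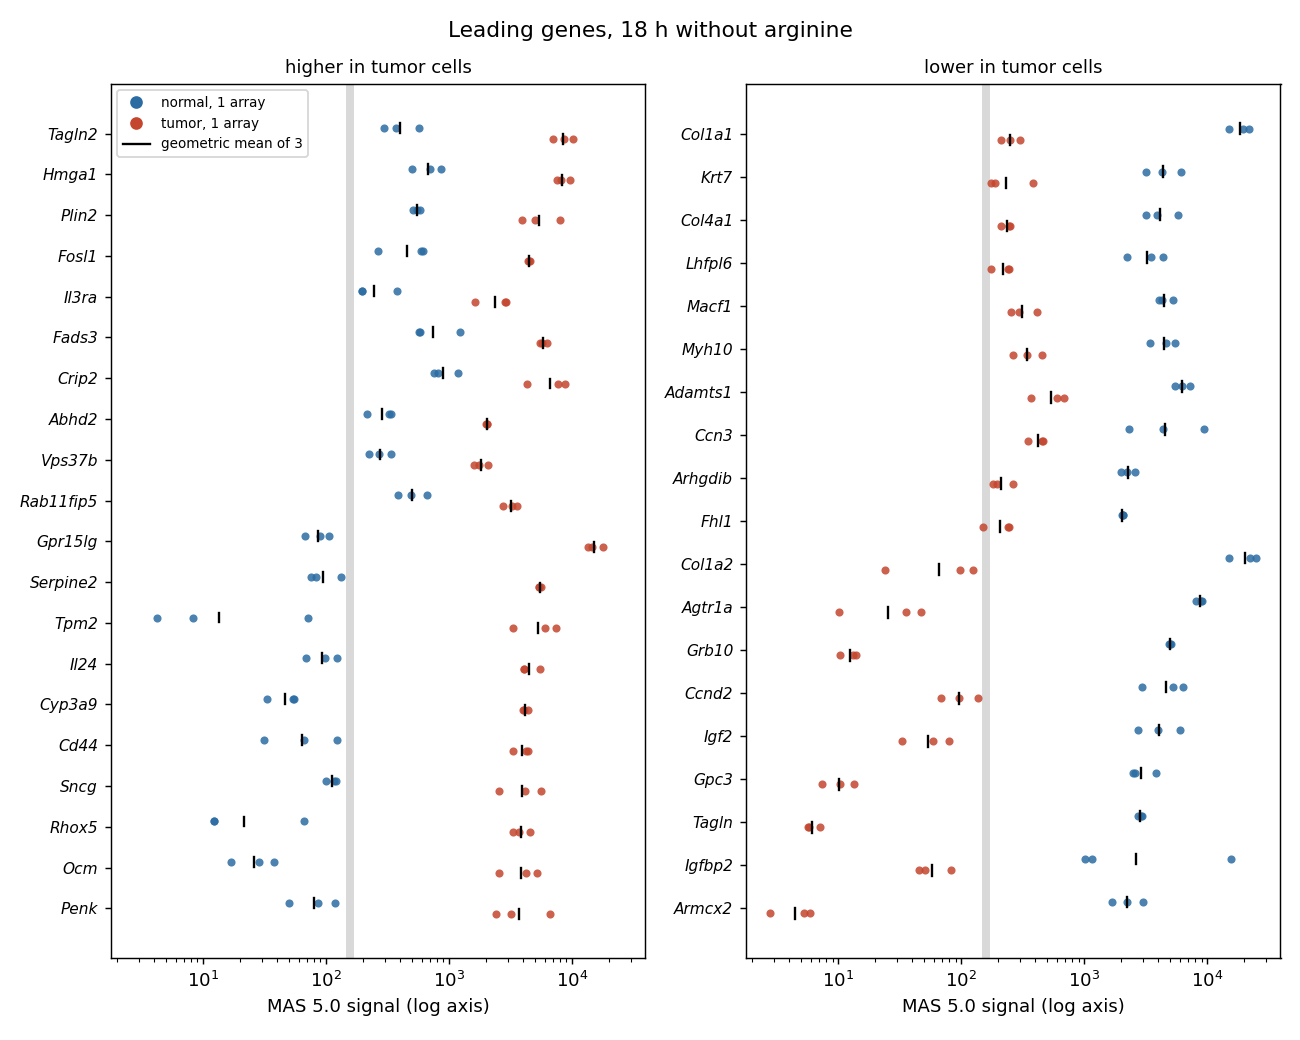
Signal of each array (log axis) for the leading genes, normal arrays in blue, tumor arrays in red, with the geometric mean of 3 arrays as a black bar and the thresholds of the 6 arrays as a gray band. The lines do not overlap for any gene shown, which the rule that chose these genes required. Among the normal arrays Igfbp2 and Tpm2 have the widest spread.

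The labelled identity of the lines was checked against markers of liver cell types. Of 27 hepatocyte markers on the array, 1 was expressed on all 3 normal and 3 on all 3 tumor arrays. Alb, which encodes albumin, had 87.3, 69.9 and 63.4 in normal and 123, 140.2 and 161 in tumor cells, and Asgr1, the asialoglycoprotein receptor, had 2.30, 3.20 and 1.90 and 2.10, 3.10 and 2.70. Alb was above the threshold on tumor array 12 alone, Asgr1, Afp and Apoa1 were under it on all 6 arrays, and the factor Foxa2 was the marker expressed on all 6. Summed over the 27 markers, signals were 2199 to 2727 in normal and 3031 to 4015 in tumor cells. Only 3 passed the filter, and 1 of them, Cyp2e1, a cytochrome P450 of hepatocytes, was higher by at least 1.08-fold. This call was lost without normal array 2 or 6 or tumor array 10 or 12, at adjusted p = 0.0801 to 0.129.

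Markers of bile ducts and progenitor cells were split. Of 16 on the array 6 were tested, and 5 of these were higher and 1 lower. Their median difference was 1.46, or 1.40 with signals under the threshold raised to it. Cd44, among the higher ones, reached the threshold on tumor arrays only. Krt7 was lower, and Krt19, the other classical bile duct keratin, stayed under the threshold on every array, as did Epcam. Cd24 lay on the lower side, at 214.9, 168.4 and 103.6 in normal and 18.8, 28.3 and 24.6 in tumor cells, too few expressed signals for the test. Anxa4, an annexin of secretory epithelia, had 787, 1349 and 1614 in normal and 3205, 3140.5 and 3199 in tumor cells (1.41 ± 0.26, adjusted p = 0.00250), and Aqp1, a water channel, differed by 1.51 ± 0.26 (adjusted p = 0.00165). Spp1, which encodes osteopontin, had 54.8, 20.7 and 177 in normal and 1225, 205 and 206 in tumor cells, with array 8 far above the other tumor arrays (2.67 as fitted, adjusted p = 0.0320, or 1.12 with the low signals of normal arrays 2 and 4 raised to the threshold). Ggt1, gamma-glutamyltransferase, a classical marker of altered rat liver foci, had 187, 203 and 188 in normal and 581, 411 and 531 in tumor cells and differed by 1.38 ± 0.22 (adjusted p = 0.00112).

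Stellate cell and fibroblast markers were lower in tumor cells, 5 of 8 tested, with 0 higher and a median of -1.55. Their summed signal over 16 markers was 44011 to 67363 in normal and 6833 to 8473 in tumor arrays, and most of the normal sum came from Col1a1, Col1a2 and Col3a1. Of the 16, 6 were expressed on all 3 normal arrays and 5 on all 3 tumor arrays. Hand2, a transcription factor of stellate cells, had 398, 363 and 336 in normal and 414, 323 and 198 in tumor cells, and Des, desmin, had 126, 374 and 189 and 132, 169 and 112. Pdgfra, Pdgfrb and Dcn were under the threshold on all 6 arrays, at 106, 31.3 and 91 for Pdgfrb in normal cells. Acta2, smooth muscle actin, had 1083, 1402 and 1865 in normal and 302, 464 and 400.5 in tumor cells (-1.88 ± 0.25, adjusted p = 0.000462). In a bulk culture, fewer cells of a type and less RNA per cell cannot be told apart. Of 11 endothelial markers, Eng, Lyve1 and Esam were expressed on all 3 tumor arrays and passed, at least 1.61-, 2.26- and 1.28-fold higher, but Esam lost its call without normal array 2 or 4 or tumor array 10 or 12 (adjusted p = 0.0668 to 0.0761). Flt1, a VEGF receptor, lay the other way, at 109.8, 424 and 441 in normal and 125, 85.1 and 71.3 in tumor cells, too few expressed signals for the test. The other 7 were under the threshold on every array, Pecam1, Kdr and Vwf among them. Of 13 macrophage and leukocyte markers 3 were tested and 0 passed, and Cd14 was expressed on all 6 arrays.

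Matrix genes were the list with the largest number of lower members. Of 31 tested, 17 were lower and 6 higher, with a median of -1.08, or -0.99 with low signals raised to the threshold, against 17.8% lower and a median of 0.05 over all genes. The lower members covered the fibrillar collagens (Col1a1, Col1a2, Col3a1, Col5a1, Col5a2), basement membrane type IV collagen (Col4a1, Col4a2) and the laminin chains Lama5, Lamb1, Lamb2 and Lamc1. Col4a1 had 5809.9, 3909.5 and 3193 in normal and 212, 252 and 243 in tumor cells on one probe set (-4.15 ± 0.24, adjusted p = 3.19e-06), and its other probe set was at least 24-fold lower. Col3a1 had 16477, 11662 and 8944 in normal and 3439, 5810.2 and 6590.2 in tumor cells (-1.24 ± 0.29, adjusted p = 0.00881). The estimate for Col3a1 was thus well short of those for Col1a1 and Col4a1, a contrast that was not tested. Sparc, a collagen-binding glycoprotein, had 22750.0, 15493 and 12011 in normal and 1616, 3423 and 3117 in tumor cells (-2.65 ± 0.32, adjusted p = 0.000234). Fbln2, a fibulin of elastic fibers, differed by -3.20 ± 0.27 and Eln, elastin itself, by -2.87 ± 0.31.

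The 6 matrix genes that were higher in tumor cells were Tnc, Col8a1, Col6a2, Col6a3, Lama3 and Loxl1. Tnc, tenascin C, a matrix protein of wounds and tumor stroma, had 30.7, 171 and 128 in normal and 7229.5, 6254 and 5575 in tumor cells, with 1 of the 3 normal signals above the threshold (6.17 ± 0.52, adjusted p = 2.91e-05, or 5.21 with low signals raised to it). Col8a1, of short-chain type VIII collagen, had 102, 123 and 221 in normal and 3277, 2000.4 and 1482 in tumor cells (3.92 ± 0.35, adjusted p = 3.81e-05). Loxl1, a lysyl oxidase-like enzyme that cross-links elastin, was at least 4.23-fold higher, while Lox, the prototype of its family, had 6735, 6446 and 5286 in normal and 349, 182 and 83.8 in tumor cells and was lower by 35.1-fold, with 2 of the 3 tumor signals above the threshold. Both directions held in the counts when any 1 array was left out, with 15 to 18 lower and 6 higher.

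Contractile and mesenchymal genes followed the same side, with 13 of 23 lower, 2 higher and a median of -0.64. Tpm1, alpha-tropomyosin, had 3652, 4048 and 4178 in normal and 853, 716 and 787 in tumor cells (-2.34 ± 0.18, adjusted p = 1.49e-05), whereas Tpm2, described above, was higher. Tropomyosin genes thus differed in opposite directions between the lines. Cdh2, N-cadherin, had 356, 344 and 490.4 in normal and 11.8, 10.2 and 14 in tumor cells, at least 2.48-fold lower. Ankrd1 and Ccn1, targets of the coactivator YAP, were lower, at -3.50 and -1.94 as fitted on the log2 scale. For Ankrd1 not all signals reached the threshold, so its fitted size rests in part on low signals. Vim, vimentin, did not pass (-0.26 ± 0.20, adjusted p = 0.332).

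Cell junction genes and keratins had 4 higher and 4 lower of 13 tested. Ocln, the tight junction protein occludin, had 993, 951 and 1502 in normal and 66.1, 30.8 and 60.0 in tumor cells, at least 7.12-fold lower, and Tjp1, its scaffold, had 3900.1, 5021 and 4960.3 in normal and 2269.8, 2138 and 1699.9 in tumor cells (-1.19 ± 0.20, adjusted p = 0.00144). Dsc2, a desmosomal cadherin, had 15.7, 19.3 and 15.5 in normal and 928, 442 and 547 in tumor cells, at least 3.59-fold higher. Krt14, a basal epithelial keratin, had 183, 206 and 163 in normal and 584, 2492 and 3561 in tumor cells (3.24 ± 0.54, adjusted p = 0.00154), with array 8 well under the other tumor arrays. Cdh1, E-cadherin, was under the threshold on every array, at 7.40, 11.5 and 4.0 in normal and 6.70, 5.60 and 5.10 in tumor cells. Among 16 integrins and surface receptors, 6 were higher and 4 lower. Cd9, a tetraspanin, differed by 2.04 ± 0.45 (adjusted p = 0.00688), and Itga1, a collagen-binding integrin, by -2.30 ± 0.53 (adjusted p = 0.00808), with 1 of the 3 tumor signals above the threshold and normal array 2 the highest.

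Secreted proteases and their inhibitors had 6 higher and 6 lower of 21, the same counts when any 1 array was left out. Ctsh, cathepsin H, had 113, 160.5 and 90.7 in normal and 2451, 2883 and 2036 in tumor cells, at least 14.4-fold higher (adjusted p = 3.17e-06). Plat, tissue plasminogen activator, had 1933, 1382 and 2519.8 in normal and 127, 122 and 126 in tumor cells, at least 12-fold lower (adjusted p = 4.03e-06), while Plau, urokinase, the other plasminogen activator, had 90.0, 75.7 and 55.8 in normal and 332, 524 and 504 in tumor cells, at least 2.62-fold higher (adjusted p = 0.000202). The plasminogen activators thus differed in opposite directions. Serpinb2, the inhibitor PAI-2, was at least 8.87-fold higher, and Mmp3, stromelysin 1, at least 6.79-fold. Prss23, a secreted serine protease, had 7150.1, 9016 and 6307 in normal and 123, 152 and 176 in tumor cells (-5.64 ± 0.22, adjusted p = 1.93e-07), with 1 of the 3 tumor signals above the threshold.

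Growth factors, their receptors and binding proteins had 13 lower and 6 higher of 33, with a median of -0.30. Among the 7 tested members that are insulin-like growth factors, their receptors or binding proteins, Igf2, Igf1r, Igf2r, Igfbp2 and Igfbp7 were lower, Igfbp6 did not pass (-0.05), and Igfbp4 had 158, 139.7 and 268 in normal and 1892, 1512 and 1168 in tumor cells and was higher (3.05 ± 0.29, adjusted p = 5.25e-05). Bmp6, a bone morphogenetic protein, had 1853, 1884 and 1624 in normal and 106, 123 and 68.2 in tumor cells, at least 11.3-fold lower (adjusted p = 3.32e-06), and Fgfr1 was at least 2.77-fold lower. Ereg, epiregulin, a ligand of the EGF receptor, had 156, 207 and 160.3 in normal and 764, 1069 and 724 in tumor cells (2.28 ± 0.23, adjusted p = 8.83e-05), and the ligands Areg, amphiregulin, Hbegf and Tgfa differed by 2.17, 0.89 and 0.78, all past the test, with 0.97 for Areg once low signals were raised to the threshold, while Btc did not pass (-0.23) and neither did the receptor Egfr (-0.33 ± 0.38, adjusted p = 0.541). Without tumor array 10 the number of higher members was 3.

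Genes of arginine metabolism differed in both directions. Of 12 tested, 4 were lower (33.3%) and 2 higher (16.7%, near the 18.0% of all genes), with a median of 0.19. Ddah1 and Ddah2 break down asymmetric dimethylarginine, an inhibitor of nitric oxide synthase. Ddah1 had 3916, 2534 and 1942 in normal and 402, 697 and 451 in tumor cells (-2.42 ± 0.30, adjusted p = 0.000273), and Ddah2 had 344, 222 and 278 in normal and 3.90, 5.30 and 15.3 in tumor cells, at least 1.76-fold lower (adjusted p = 0.000616). Arg1, liver arginase, had 350.2, 603 and 283 in normal and 108, 104 and 166 in tumor cells (-1.67 ± 0.33, adjusted p = 0.00386), with 1 of the 3 tumor signals above the threshold. Oat, ornithine aminotransferase, which turns ornithine toward glutamate, had 1362, 1656 and 1907 in normal and 862, 762 and 838 in tumor cells (-0.99 ± 0.20, adjusted p = 0.00373). All 4 enzymes were lower on every tumor array than on any normal array, as were 1676 of the 1738 probe sets called lower. Ass1 and Asl, which rebuild arginine from citrulline, showed no call, since Ass1 had 67.8, 67.9 and 64.0 in normal and 106, 118 and 114 in tumor cells, all under the threshold, and Asl differed by 0.28 ± 0.27 (adjusted p = 0.453). Aldh18a1 and Glul, of proline and glutamine synthesis, were higher by 0.60 and 0.79 but passed neither without tumor array 10 nor without tumor array 12, and the other probe sets of Glul did not pass (0.18 and 0.47).

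Polyamine synthesis lies downstream of ornithine, and 7 of its 11 members were higher against 18.0% of all genes, with 2 lower and a median of 0.72. Sms, spermine synthase, had 177, 188 and 237 in normal and 1205, 973 and 1006 in tumor cells (2.41 ± 0.21, adjusted p = 3.17e-05), and Srm, spermidine synthase, had 1000.0, 1004 and 571 in normal and 3122, 4146 and 3607 in tumor cells (2.12 ± 0.25, adjusted p = 0.000222). Odc1, ornithine decarboxylase, the first enzyme of the route, had 6842, 4814 and 3679.8 in normal and 8127, 9469.8 and 9365 in tumor cells (0.86 ± 0.23, adjusted p = 0.0169). Azin1, which relieves Odc1 of its antizyme, differed by 1.37 ± 0.31 (adjusted p = 0.00762), and Dhps, which uses spermidine to modify the factor eIF5A, by 1.26 ± 0.27 (adjusted p = 0.00590). Each of these had every tumor signal above every normal signal, as did 1527 of the 1543 probe sets called higher. Amd1, which supplies the aminopropyl group, was lower, at 847, 602 and 752 in normal and 450.2, 380.0 and 289 in tumor cells (-0.98 ± 0.23, adjusted p = 0.00922), as was Oaz2 (-0.66). Without normal array 6 or tumor array 10 the number of higher members was 4.

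**Figure D3:**
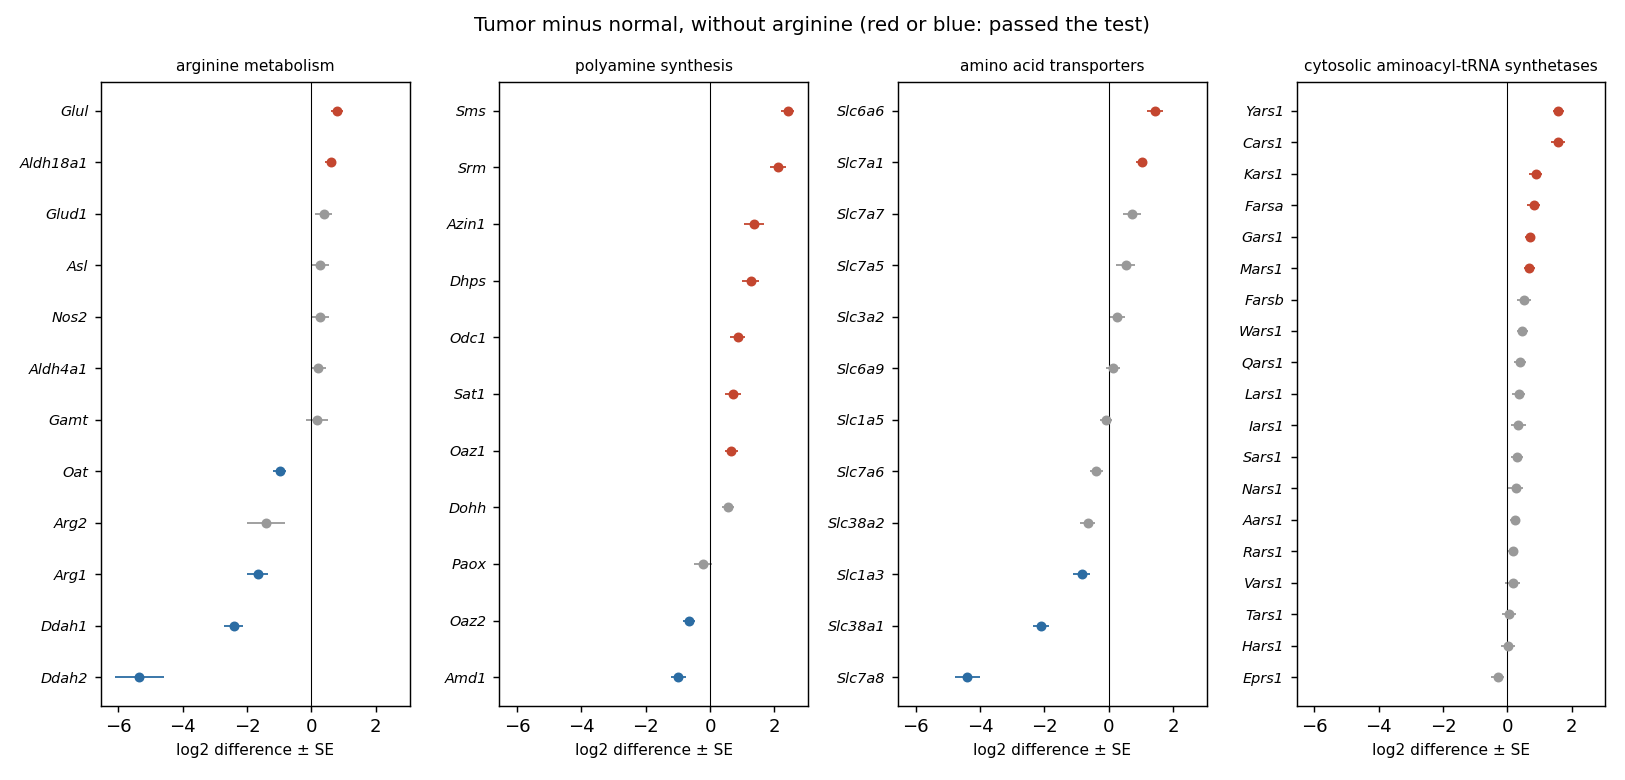
Log2 difference between tumor and normal cells without arginine for the tested members of the lists of arginine metabolism, polyamine synthesis, amino acid transporters and aminoacyl-tRNA synthetases (x axis, bars ± SE from the fit). Red and blue points passed the test and gray points did not. The polyamine list has 7 red points of 11 and the synthetase list 6 of 19 with no blue point.

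Amino acid transporters had 2 higher and 3 lower of 12, close to the background. Slc7a1, the cationic carrier that takes up arginine, had 2015, 1931 and 2435 in normal and 4586, 4544 and 3795 in tumor cells (1.02 ± 0.18, adjusted p = 0.00228), and its other probe sets differed by 0.80 ± 0.24 and 1.67 ± 0.43. Slc6a6, a taurine carrier, differed by 1.44 ± 0.24 (adjusted p = 0.00142). Slc7a8, a light chain for neutral amino acids, had 408, 443 and 491 in normal and 20.6, 28.2 and 16.7 in tumor cells, at least 2.83-fold lower (adjusted p = 3.22e-05), and Slc38a1, a glutamine carrier, was at least 3.44-fold lower. Slc7a5, the large neutral amino acid carrier, had 5090.1, 2219 and 2229 in normal and 4056, 4129.6 and 4502 in tumor cells and its partner Slc3a2 had 8644, 5162 and 4696 in normal and 6574, 7862 and 6980.5 in tumor cells, and in both normal array 2 lay above every tumor signal. Neither passed (0.53 ± 0.30, adjusted p = 0.201, and 0.26 ± 0.24, adjusted p = 0.423), though Slc7a5 did without normal array 2.

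Targets of ATF4 had 7 higher and 5 lower of 24 (29.2% and 20.8%) and a median of 0.05. Over all genes the shares were 18.0% and 17.8%. Atf4 itself had a difference of 0.03 ± 0.16 (adjusted p = 0.900) and Ddit3, CHOP, of 0.02 ± 0.36 (adjusted p = 0.971). Asns, asparagine synthetase, was higher, at 3599, 3296 and 3326 in normal and 8656, 9743 and 9551 in tumor cells (1.45 ± 0.16, adjusted p = 0.000153). Other synthetic enzymes on that side were Psat1, Shmt2, Mthfd2 and Bcat1, at 0.95, 0.66, 1.27 and 1.31. Phgdh, the enzyme upstream of Psat1 in serine synthesis, was on the opposite side, at 5974, 6516 and 4686 in normal and 3502, 2396 and 2505 in tumor cells (-1.04 ± 0.21, adjusted p = 0.00462). Ddit4, an inhibitor of mTORC1, had 1535, 578 and 1237 in normal and 255, 219.6 and 200.5 in tumor cells (-2.20 ± 0.33, adjusted p = 0.000869), and Nupr1, a stress-induced chromatin protein, had 4223, 1837 and 2511 in normal and 1066, 769 and 658 in tumor cells (-1.72 ± 0.31, adjusted p = 0.00224). Stc2, stanniocalcin 2, differed by 1.36 ± 0.30 (adjusted p = 0.00716), with 2 of the 3 normal signals above the threshold. Without normal array 6, tumor array 10 or tumor array 12 there were 4 higher members.

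Cytosolic aminoacyl-tRNA synthetases, which charge tRNA for protein synthesis, had 6 higher and 0 lower of 19, with a median of 0.35. Yars1, for tyrosine, had 2151, 1852 and 2016 in normal and 5405, 6536 and 6107 in tumor cells (1.58 ± 0.17, adjusted p = 0.000136), and Cars1, for cysteine, had 1064, 1637 and 1128 in normal and 3605, 3854 and 3766 in tumor cells (1.58 ± 0.21, adjusted p = 0.000396). Kars1, Farsa, Gars1 and Mars1, for lysine, phenylalanine, glycine and methionine, differed by 0.89, 0.82, 0.70 and 0.69. Farsa did not pass without tumor array 10 or 12 (adjusted p = 0.0698 and 0.0533). Rars1, which charges arginine, did not pass (0.17 ± 0.18, adjusted p = 0.509).

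The response element of ATF4, TGATGNAAN on either strand, was searched in the 250 bases before the start of each gene in RefSeq promoters of the GRCr8 assembly, of which 3.38% hold it (1132 of 33469). It was found in 1 of 5 higher and 4 of 12 other synthetases with a promoter entry, and in 0 of 7 higher, 1 of 5 lower and 4 of 10 other members of the ATF4 list. Promoters with and without the element thus occurred among genes of either outcome. One from each direction is shown, with the element in capitals, here as its reverse complement, for Mars1 (chr7:65023754-65024003, minus strand, element beginning 18 bases before the start) and Nupr1 (chr1:190645902-190646151, minus strand, 56 bases).
Mars1: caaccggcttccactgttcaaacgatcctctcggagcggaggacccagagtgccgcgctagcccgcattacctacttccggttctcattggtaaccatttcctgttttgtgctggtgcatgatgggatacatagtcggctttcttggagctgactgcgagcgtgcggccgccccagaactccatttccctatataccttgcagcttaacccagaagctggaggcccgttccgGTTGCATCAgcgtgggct
Nupr1: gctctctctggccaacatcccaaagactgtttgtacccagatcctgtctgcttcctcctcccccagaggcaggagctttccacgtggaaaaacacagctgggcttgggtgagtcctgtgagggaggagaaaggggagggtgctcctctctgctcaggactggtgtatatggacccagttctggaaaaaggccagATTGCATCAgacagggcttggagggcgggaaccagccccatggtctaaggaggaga

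Genes for making ribosomes were higher, 13 of 33 with 0 lower and a median of 0.46, and 9 to 15 were higher with any 1 array left out. Dkc1, the pseudouridine synthase dyskerin, had 650.5, 763 and 439.5 in normal and 2353, 2418 and 2532 in tumor cells (2.02 ± 0.23, adjusted p = 0.000167). Mrto4, of large subunit assembly, had 552, 750.2 and 506 in normal and 2062, 2492 and 2314 in tumor cells (1.94 ± 0.21, adjusted p = 0.000126), Nolc1, a nucleolar chaperone, differed by 1.58 ± 0.30 and Wdr74, also of large subunit assembly, by 1.23 ± 0.22. Polr1a and Polr1b, the catalytic subunits of RNA polymerase I, were among the higher members, at 1.13 and 1.19. The ribosomal proteins themselves gave 3 higher and 1 lower of 39, below the background, with Rpl7, Rpl22 and Rpl11 at 0.83, 0.77 and 0.75 and Rpl37a, which did not pass without normal array 2 or 4, at -0.79.

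DNA replication genes had 13 higher and 2 lower of 28 and a median of 0.66. The higher members included helicase subunits (Mcm2, Mcm4, Mcm6, Mcm7), polymerase subunits and clamp loaders. Rpa2, of the single-strand binding complex, had 242, 261 and 174 in normal and 545, 629 and 744 in tumor cells (1.51 ± 0.23, adjusted p = 0.000991), and Pold2, of polymerase delta, had 837, 1098 and 644 in normal and 1667, 2303 and 2462 in tumor cells (1.33 ± 0.25, adjusted p = 0.00265). Rfc3 and Rfc2, of the clamp loader, differed by 1.24 ± 0.34 and 1.21 ± 0.36, and for Rfc2 array 8 was well under the other tumor arrays. Rfc3 did not pass without normal array 6 or tumor array 10 or 12 (adjusted p = 0.0568 to 0.0629), nor Rfc2 without these or normal array 2 (0.0616 to 0.103). Tyms, thymidylate synthase, was at least 2.25-fold lower, with 150.5, 144 and 138 in tumor cells. The count depended on single arrays, since 3 members were higher without tumor array 10, 4 without tumor array 12 or normal array 6 and 6 without normal array 2, while the median was 0.46 to 0.94 over all arrays left out. Mitosis genes, in contrast, gave 1 higher and 1 lower of 23, below the background, and a median of -0.07. Without normal array 6 there were 4 lower members and a median of -0.32, and without normal array 4 there were 3 higher and a median of 0.24, so the direction of the median rested on single arrays. The members that passed with all arrays were Cdc25b, a phosphatase that activates CDK1, at 1.88 ± 0.41 (adjusted p = 0.00640, 1 of the 3 normal signals above the threshold), and Plk4, a kinase of centriole duplication, at -1.39 ± 0.29 (adjusted p = 0.00511).

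Regulators of the G1 phase showed both directions, 4 higher and 6 lower of 14. Cdkn2a, the locus of the tumor suppressors p16 and p19Arf, had 1172, 824 and 1040.1 in normal and 4.0, 2.10 and 8.40 in tumor cells, at least 6.35-fold lower (adjusted p = 1.58e-05). Ccnd2, cyclin D2, had 6339, 2939 and 5320.2 in normal and 96.1, 136 and 68.2 in tumor cells, at least 29.3-fold lower (adjusted p = 3.32e-06), whereas Ccnd1, cyclin D1, had 2159.6, 1614 and 1674 in normal and 3986, 3935 and 3806 in tumor cells (1.12 ± 0.18, adjusted p = 0.00140). D-type cyclins thus differed in opposite directions. Btg1, an antiproliferative factor, had 1623, 1348 and 2725 in normal and 9968, 8634 and 9236 in tumor cells (2.35 ± 0.25, adjusted p = 0.000127), and Cdkn1b, the inhibitor p27, had 1898, 1938 and 1875 in normal and 751, 523 and 779.5 in tumor cells (-1.50 ± 0.21, adjusted p = 0.000521). Gadd45g and Gadd45b were lower, by at least 7.18-fold for Gadd45g, while Gadd45a had 2381, 359.5 and 1218 in normal and 4631, 3992 and 2553 in tumor cells and was higher (1.83 ± 0.56, adjusted p = 0.0290). Its normal signals spread widely, and the call was lost without normal array 6, tumor array 8 or tumor array 10 (adjusted p = 0.0611 to 0.0837). Cdkn1a, the inhibitor p21, had 1239.9, 1699.6 and 1299 in normal and 1807, 2168 and 2221 in tumor cells (0.56 ± 0.20, adjusted p = 0.0525) and did not pass, though every tumor signal was above every normal one. It passed in several alternative fits. The other tested probe set of Cdkn1a had 547.6, 878.5 and 820.4 in normal and 1199.5, 1286.4 and 1105.8 in tumor cells, likewise without overlap.

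Among 10 targets of p53, 1 was higher and 3 lower. Phlda3, an inhibitor of AKT, had 1209.9, 1284 and 1076 in normal and 2504, 3879.6 and 3584 in tumor cells (1.46 ± 0.21, adjusted p = 0.000693), and Zmat3, Ephx1 and Ccng1 differed by -1.65, -1.39 and -1.04. Caspases and BCL2 relatives had 6 higher and 2 lower of 17. Bid, which links caspase-8 to mitochondria, had 293, 413 and 438 in normal and 2212, 1969.9 and 2101 in tumor cells (2.48 ± 0.21, adjusted p = 2.89e-05), and Casp1, the inflammatory caspase, was at least 2.30-fold higher. Birc2, the inhibitor cIAP1, had 1450.1, 1214 and 1614 in normal and 486, 424 and 433 in tumor cells (-1.66 ± 0.19, adjusted p = 0.000197), and Casp12, a caspase of the endoplasmic reticulum, differed by -1.0 ± 0.28 (adjusted p = 0.0211), a call lost without normal array 2 or 6 or tumor array 10 or 12 (0.0712 to 0.0811). Among MYC, MXD and ID factors, 2 were higher and 5 lower of 14. Mycn had 788, 1191 and 1071 in normal and 10.9, 14.9 and 13 in tumor cells, at least 6.35-fold lower (adjusted p = 2.29e-06), while Myc had 398, 467 and 593 in normal and 1351, 1044 and 857 in tumor cells (1.15 ± 0.24, adjusted p = 0.00467). The MYC paralogs thus differed in opposite directions, as did Id2 (1.12) and Id3 (-1.12), though Id3 lost its call without any 1 of the normal arrays (adjusted p = 0.0591 to 0.0859). Without normal array 2 the lower members were 3. Immediate early genes had 5 higher and 2 lower of 17, with 4 lower without normal array 2. Dusp5, a phosphatase of ERK, had 127, 228 and 434 in normal and 1821, 1392 and 1438 in tumor cells (2.73 ± 0.38, adjusted p = 0.000544), and Klf2 differed by -1.56 ± 0.29 (adjusted p = 0.00261). Fos was at least 2.40-fold lower, opposite to its relative Fosl1.

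**Figure D4:**
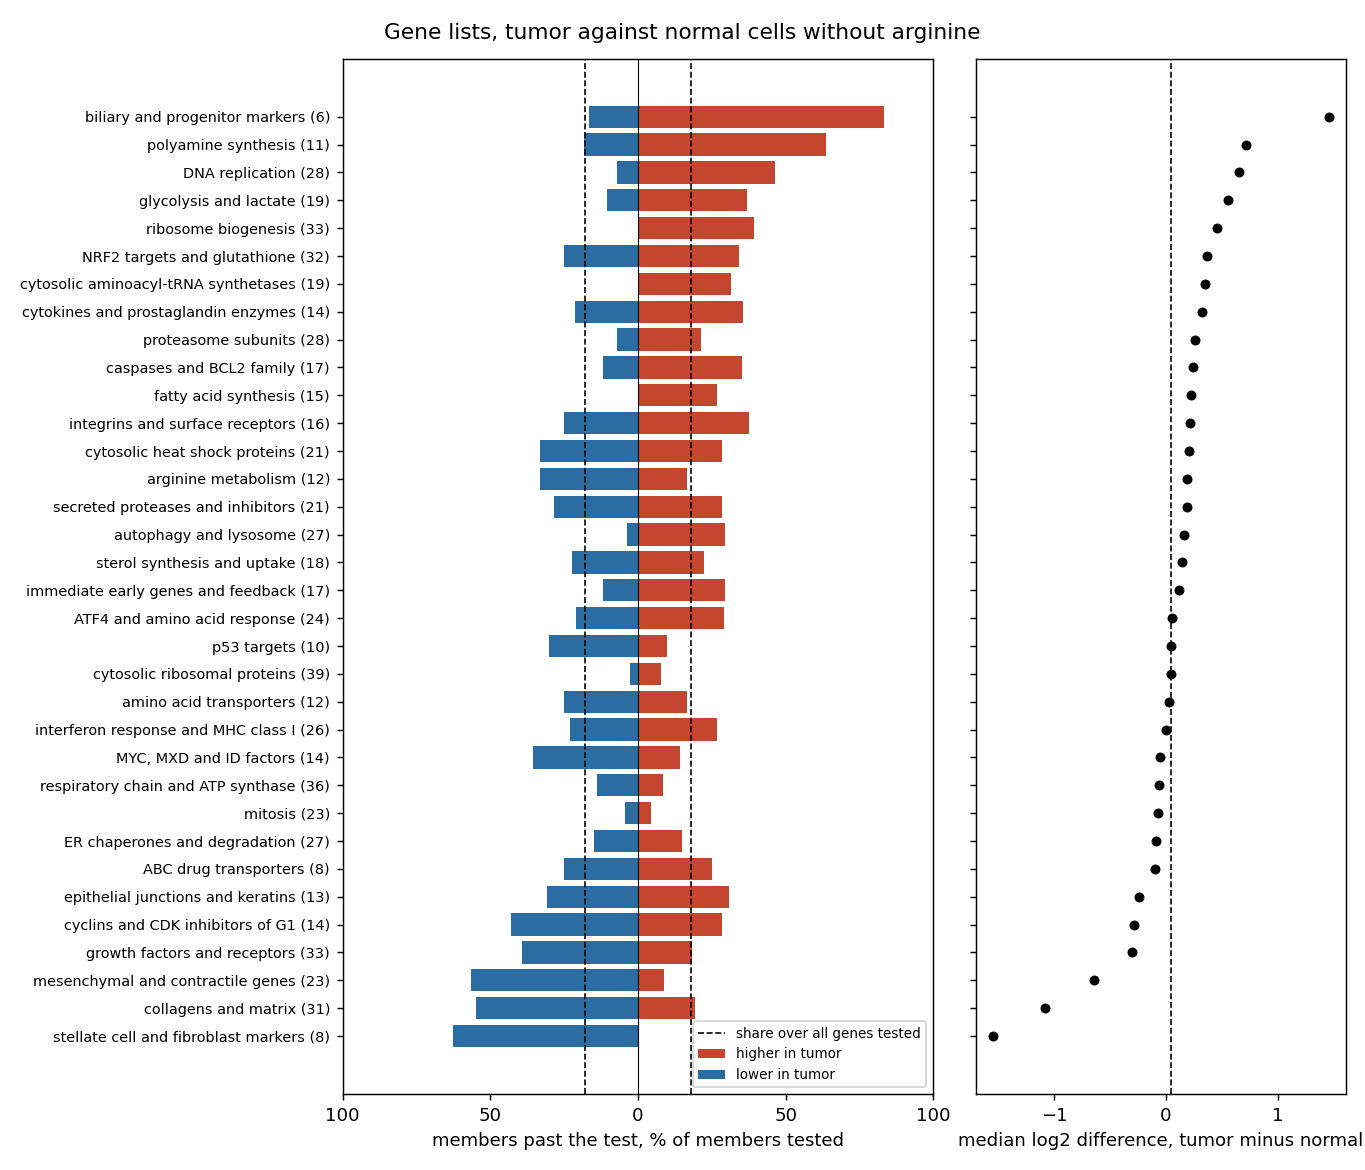
Left, share of tested members higher (red, right of 0) or lower (blue, left of 0) in tumor cells for lists with at least 6 tested members (number in brackets), with the shares over all genes, 18.0% and 17.8%, as dashed lines. Right, median log2 difference of each list, with the median over all genes as a dashed line. Polyamine synthesis and DNA replication lie at the upper end beside the bile duct and progenitor markers, and matrix, contractile and stellate cell lists at the lower end.

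Central metabolism was higher for glycolysis, 7 of 19 with 2 lower and a median of 0.55, or 0.49 with low signals raised to the threshold. Eno1, enolase, had 3750.0, 6570.1 and 4888 in normal and 14051, 17244 and 19425 in tumor cells (1.76 ± 0.23, adjusted p = 0.000388), and Slc16a1, a lactate carrier, had 921, 622 and 733 in normal and 2810.5, 3275 and 2659.7 in tumor cells (1.96 ± 0.21, adjusted p = 0.000112). Hk2, hexokinase 2, differed by 1.69 ± 0.38 (adjusted p = 0.00717), with 2 of the 3 normal signals above the threshold. Ldhb, the heart-type subunit of lactate dehydrogenase, had 1309.8, 1967 and 1644 in normal and 45.2, 140.5 and 152 in tumor cells and was lower (adjusted p = 0.000102), at -4.03 as fitted and -3.34 with low signals raised to the threshold, which 1 of the 3 tumor signals reached, while Ldha, the muscle-type subunit, did not pass (0.25 ± 0.27, adjusted p = 0.497). Subunits of the respiratory chain and ATP synthase gave 3 higher and 5 lower of 36, below the background, with Atp5f1c, Ndufb3 and Cox6c lower at -1.39, -1.28 and -0.85 and Ndufv1 higher at 0.89. Without tumor array 10 these counts were 1 and 2, Cox6c among those lost (adjusted p = 0.0676).

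Sterol synthesis had 4 higher and 4 lower of 18, 22.2% each, near the 18.0% and 17.8% of all genes. Insig1, which retains the sterol sensor in the endoplasmic reticulum, had 882, 953 and 759 in normal and 352, 112 and 206 in tumor cells (-2.10 ± 0.36, adjusted p = 0.00177), and Sqle, squalene epoxidase, had 741, 841 and 687 in normal and 478, 85.2 and 171 in tumor cells (-1.98 ± 0.50, adjusted p = 0.0126), each with 2 of the 3 tumor signals above the threshold and array 8 the highest tumor array. Lss, lanosterol synthase, was at least 2.84-fold lower, whereas Cyp51, the next enzyme, had 511, 509.5 and 595 in normal and 1380.5, 1008 and 1026 in tumor cells (1.07 ± 0.20, adjusted p = 0.00301). Fdps, of farnesyl diphosphate synthesis, had 1857, 1957 and 1145 in normal and 1131, 1559 and 2322 in tumor cells and overlapped between the lines (-0.01 ± 0.30, adjusted p = 0.986). Fatty acid synthesis had 4 higher and 0 lower of 15. Scd2, a stearoyl-CoA desaturase, had 3.30, 21.7 and 40.5 in normal and 1425, 272 and 466 in tumor cells, at least 3.34-fold higher (adjusted p = 0.00171), and Acsl5, Agpat2 and Elovl1 differed by 0.81, 0.72 and 0.70. Higher sterol members were 2 without normal array 4 or 6 or tumor array 12. Of the 4 fatty acid genes, 1 was left without tumor array 10, and 2 without tumor array 12 or normal array 6.

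Detoxifying genes regulated by NRF2 and glutathione enzymes had 11 higher and 8 lower of 32, with a median of 0.37, or 0.24 with low signals raised to the threshold. Among the lower members were glutathione transferases, Hmox1, heme oxygenase (-1.50), and Gclc, the rate-limiting enzyme of glutathione synthesis (-1.20). Gstm2 was at least 8.17-fold lower with 1299, 1402 and 1178 in normal and 111, 145 and 114 in tumor cells, Mgst1 had 4438, 2846 and 4161 in normal and 287, 518 and 904 in tumor cells (-2.87 ± 0.37, adjusted p = 0.000366), and Gsta4 differed by -3.27 ± 0.43 (adjusted p = 0.000410), with 1 of the 3 tumor signals above the threshold. The placental transferase Gstp1, a classical marker of rat liver foci, did not pass (0.10 ± 0.20, adjusted p = 0.723). Nqo1, a quinone reductase, Gsr, glutathione reductase, and Mgst3 were higher, at 0.92, 1.11 and 1.17. So was Pgd, of the pentose phosphate pathway, at 535, 822 and 1012 in normal and 2516, 2646 and 3367 in tumor cells (1.89 ± 0.25, adjusted p = 0.000469), and Akr1b8, an aldo-keto reductase, at 4942, 6862 and 8773 in normal and 16445, 20674 and 23545 in tumor cells (1.58 ± 0.24, adjusted p = 0.000795). Aldh3a1, an aldehyde dehydrogenase of tumor foci, had 32.5, 13 and 1599.7 in normal and 469, 4528 and 5244 in tumor cells (4.67 ± 1.55, adjusted p = 0.0395), and 2.64 with the low signals of normal arrays 2 and 4 raised to the threshold. Normal array 6 lay above tumor array 8, so the lines overlapped, and the call was lost without normal array 2 or 4 or tumor array 10 or 12 (adjusted p = 0.113 to 0.134). The number of higher members was 5 without tumor array 12 and 6 without tumor array 10. Among 8 drug transporters, 2 were higher and 2 lower. Abcb1a, P-glycoprotein, had 37.9, 2.50 and 60.4 in normal and 951, 619.8 and 323 in tumor cells, at least 3.40-fold higher (adjusted p = 0.00435), Abcb4, a phospholipid exporter, was at least 1.94-fold higher, Abcc3 at least 1.72-fold lower, and Abca3 differed by -0.93 ± 0.21.

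Interferon-responsive and MHC class I genes had 7 higher and 6 lower of 26 (26.9% and 23.1%), with a median of 0.00. Over all genes the shares were 18.0% and 17.8%. Psmb8, a subunit of the immunoproteasome, had 93.6, 143 and 124 in normal and 1342, 1286 and 1636 in tumor cells, at least 8.35-fold higher (adjusted p = 4.90e-06). Tap1, Tap2, B2m and Psmb9 differed by 1.26, 2.36, 0.70 and 1.04 as fitted. For Tap2 not all signals reached the threshold, so its fitted size rests in part on low signals. Usp18, which removes the ubiquitin-like ISG15, had 150.4, 129 and 210.2 in normal and 1207, 1284 and 1742 in tumor cells (3.12 ± 0.25, adjusted p = 1.81e-05), and Bst2, tetherin, had 203, 156 and 178 in normal and 1323, 582 and 676 in tumor cells (2.17 ± 0.31, adjusted p = 0.000579), with array 8 the highest. Ifitm3, an antiviral membrane protein, was lower, at 4751, 4998 and 5571 in normal and 914, 1753 and 2112 in tumor cells (-1.76 ± 0.29, adjusted p = 0.00135), as were Ifitm2, Ifi27 and Irf1 (-1.01, -1.15 and -0.70) and the proteasome activator genes Psme1 and Psme2 (-1.43 and -0.78). Without tumor array 12 the higher members were 4, and without normal array 6 the lower members were 3.

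The core of the interferon-stimulated response element, TTTC, any 2 bases and TTTC again on either strand, stands in the 250 bases before the start of 3.41% of RefSeq promoters (1140 of 33469). It was found in 4 of 6 higher and 4 of 6 lower members with a promoter entry, and in 5 of 10 that did not pass, so its presence did not follow the direction. Promoters of 2 higher and 2 lower members are shown with the element in capitals, 5' to 3' on the gene's strand. In Bst2 (chr16:18254968-18255217, minus strand) 2 overlapping matches begin 131 and 125 bases before the start, in Tap1 (chr20:4668544-4668793, minus strand) 1 begins at 121 bases, in Ifi27 (chr6:128355062-128355311, plus strand) 2 begin at 169 and 84 bases, and in Ifitm3 (chr1:205541759-205542008, minus strand) 1 begins at 44 bases.
Bst2: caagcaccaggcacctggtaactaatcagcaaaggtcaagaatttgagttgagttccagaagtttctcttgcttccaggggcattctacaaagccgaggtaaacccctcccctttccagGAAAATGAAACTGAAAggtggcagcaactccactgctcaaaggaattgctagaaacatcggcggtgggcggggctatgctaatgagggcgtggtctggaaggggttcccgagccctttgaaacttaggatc
Tap1: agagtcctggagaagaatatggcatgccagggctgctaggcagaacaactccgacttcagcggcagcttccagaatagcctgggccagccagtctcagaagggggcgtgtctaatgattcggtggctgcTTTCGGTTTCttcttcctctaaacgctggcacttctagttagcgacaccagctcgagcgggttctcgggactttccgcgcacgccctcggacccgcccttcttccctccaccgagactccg
Ifi27: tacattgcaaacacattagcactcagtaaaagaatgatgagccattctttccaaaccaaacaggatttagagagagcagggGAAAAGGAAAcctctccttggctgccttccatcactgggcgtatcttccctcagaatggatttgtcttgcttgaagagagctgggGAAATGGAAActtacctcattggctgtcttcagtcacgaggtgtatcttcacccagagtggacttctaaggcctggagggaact
Ifitm3: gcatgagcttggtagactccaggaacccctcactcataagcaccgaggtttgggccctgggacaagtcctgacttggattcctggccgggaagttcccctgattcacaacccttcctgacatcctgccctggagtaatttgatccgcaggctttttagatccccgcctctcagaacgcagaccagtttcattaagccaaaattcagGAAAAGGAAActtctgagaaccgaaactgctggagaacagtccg

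Cytokine and prostaglandin genes had 5 higher and 3 lower of 14. Ptgs2, cyclooxygenase 2, had 27.2, 28.9 and 79.7 in normal and 1112, 893 and 352 in tumor cells, at least 4.16-fold higher (adjusted p = 0.000311). Ccl2, a monocyte chemokine, had 35.4, 269 and 60.0 in normal and 1048, 1071 and 507 in tumor cells (3.32 ± 0.64, adjusted p = 0.00326, or 2.07 with low signals raised to the threshold, which 1 of the 3 normal signals reached), and Il1rl1, the receptor of interleukin-33, differed by 1.97 ± 0.37 (adjusted p = 0.00269). Cxcl12, a chemokine of stromal cells, had 1384, 798 and 1391 in normal and 79.8, 134 and 139.6 in tumor cells, at least 7.31-fold lower (adjusted p = 4.26e-05).

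Protein quality control was read as separate lists. Cytosolic heat shock proteins had 6 higher and 7 lower of 21. Cryab, a small heat shock protein, had 15566, 13175 and 7884 in normal and 1152, 1972 and 1831 in tumor cells (-2.87 ± 0.29, adjusted p = 8.60e-05), Dnajb4, an HSP40 cochaperone, had 2280.2, 1814 and 2314 in normal and 402, 484 and 336 in tumor cells (-2.40 ± 0.21, adjusted p = 3.49e-05), and Dnaja1 and Hspa4 were lower by -1.54 and -1.41. Chaperones of the endoplasmic reticulum gave 4 higher and 4 lower of 27, 14.8% each and near the background. Hsp90b1, GRP94, and Creld2 were lower (-1.22 ± 0.19 and -1.54 ± 0.22), Syvn1, a ubiquitin ligase of the membrane, and Vcp, its extraction motor, were higher (1.43 ± 0.24 and 1.04 ± 0.21), and Hspa5, BiP, did not pass (-0.10 ± 0.27, adjusted p = 0.801). Proteasome subunits had 6 higher and 2 lower of 28. Higher members included Psmd3 and Psmc3, of the regulatory particle, and Psmd9, a chaperone of its assembly, at 1.17, 1.16 and 1.11, and the lower ones, Psma3 and Psma2, were of the core particle, Psma3 with 668, 647 and 974 in normal and 218, 194 and 225 in tumor cells (-1.82 ± 0.22, adjusted p = 0.000273). Autophagy and lysosome genes had 8 higher and 1 lower of 27. Mcoln1, a lysosomal calcium channel, had 393, 449.9 and 384 in normal and 1107, 1020.0 and 1094 in tumor cells (1.40 ± 0.18, adjusted p = 0.000386), and Neu1, Npc2 and Lamp1 differed by 1.15, 1.06 and 0.95. Without tumor array 10 the counts were 3 higher and 4 lower for heat shock proteins and 3 higher for proteasome subunits, and without tumor array 12 the higher lysosomal members were 4.

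By the share of 2-fold gaps, tumor array 8 differed from the rest of its line more than any other array of the comparison. By correlation it did not stand out from normal array 4. Array 8 correlated at 0.939 and 0.929 with arrays 10 and 12, and normal array 4 at 0.932 and 0.936 with arrays 2 and 6. Among 7719 probe sets expressed on all 3 tumor arrays, 2.57% had array 8 at least 2-fold above or below both others, against 0.104% for array 10 and 0.207% for array 12. In normal cells, with 7719 probe sets as well, these shares were 1.26%, 1.35% and 0.544% for arrays 2, 4 and 6. Array 8 was the only one of the 3 from its chip lot. Pdpn, podoplanin, shows the size of such gaps, at 1883, 2561 and 1788 in normal and 1672, 318 and 338 in tumor cells (-1.86 ± 0.54, adjusted p = 0.0231), with array 8 near the normal signals, and it passed neither without any 1 of the normal arrays nor without tumor array 10 or 12 (adjusted p = 0.0554 to 0.0904). Without array 8, 3489 probe sets passed, against 3281 with it.

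The difference between the lines was then set against that with arginine, as a test of the change of the difference over all 12 arrays. Of the 9019 probe sets 0 passed (0.0%), and 513 had an unadjusted p under 0.05, where 451 would be expected by chance. With the experiment as a block, that is with the deficient and sufficient cultures of consecutive numbers taken as partners, 1270 had an unadjusted p under 0.05 and 5 passed. The lowest p belonged to Prss23, for which the difference was -3.51 ± 0.21 with arginine and -5.64 without, a change of -2.13 ± 0.30 (adjusted p = 0.0569). Its signals in tumor cells were 747, 943 and 565 with arginine and 123, 152 and 176 without, while normal cells had 7700, 8760 and 8749 with and 7150.1, 9016 and 6307 without. Plau came next (adjusted p = 0.761), with all normal signals under the threshold in both media and tumor signals of 1198, 1232 and 1422 with arginine and 332, 524 and 504 without, and then Cav1, caveolin 1, with a change of -1.21 ± 0.26 (adjusted p = 0.761). For Cav1 normal cells had 3899.9, 4139 and 3779 and tumor cells 2269, 2158 and 2076 without arginine, so the lines were apart there, and the difference with arginine was 0.35 ± 0.18.

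The 5 probe sets that passed with the block were those of Prss23, Rock2, Rgs2 and Il1rl1 and 1 without a symbol. Rock2, a serine/threonine kinase, had 527, 962 and 881 in normal and 85.3, 23.3 and 25.9 in tumor cells without arginine, at least 4.84-fold lower, and 338, 241 and 145 in tumor cells with arginine (adjusted p = 0.00870 with the block), and since all tumor signals without arginine were under the threshold, no size is given for its change. Il1rl1 changed by 1.70 ± 0.25 in the blocked fit (adjusted p = 0.0331 with the block), from 0.28 ± 0.39 with arginine to 1.97 ± 0.37 without. Rgs2, a regulator of G protein signaling, overlapped between the lines without arginine, at 1076, 1899.5 and 3178 in normal and 2387, 1957 and 2161 in tumor cells (0.21 ± 0.34, adjusted p = 0.658).

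**Figure D5:**
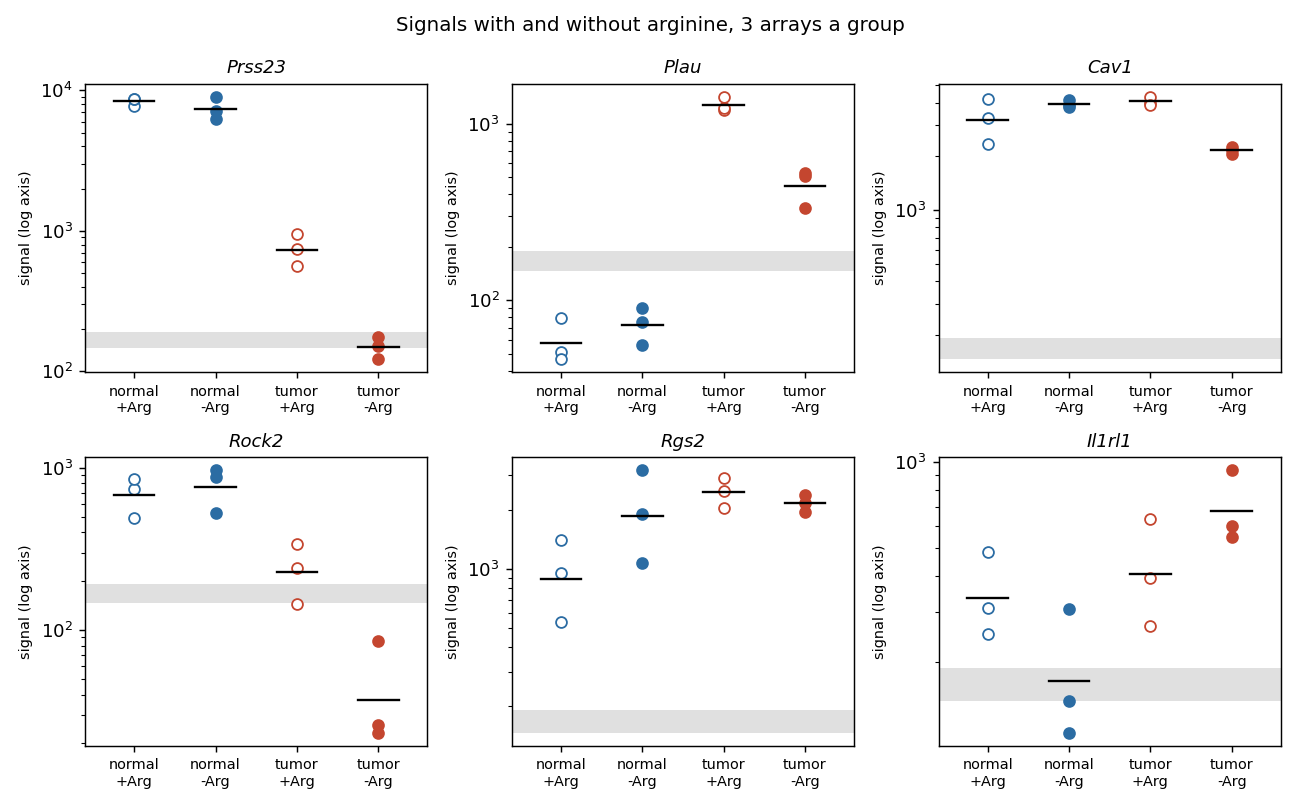
Signals of single arrays (log axis) with arginine (open circles) and without (filled) in normal (blue) and tumor (red) cells, with the geometric mean of 3 arrays as a bar and the thresholds of the 12 arrays as a gray band. Prss23 is lowest in tumor cells without arginine, at 123 to 176, and Plau is above the band in tumor cells alone.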

How the data were processed

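Total RNA of 12 cultures was hybridised to Affymetrix RAE230A arrays, 1 culture for each array, and the 6 cultures kept without arginine were compared. The authors deposited intensities, computed by Microarray Suite 5.0 and scaled on each array to a common trimmed mean. Probe set names came from GEO's platform annotation, in which 12783 probe sets have 1 symbol, 311 several and 2778 none.

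Signals under 1 were set to 1 and log2 values were computed here. Probe sets that reached the top 54% of an array, a share set here, on at least 3 of the 6 arrays entered the test. Control probe sets (57) were left out. The comparison was fitted in limma 3.58.1 (R 4.3.3) with lmFit and eBayes with an intensity trend, and p-values were Benjamini-Hochberg adjusted over the 9019 probe sets tested, with a threshold of 0.05. The change of the difference with arginine was an interaction term over all 12 arrays. The fit of the comparison was also run on simulated data in which 200 of 9019 probe sets were changed. It called 44.9% of changes of size 1 and 96.7% of size 2 on the log2 scale. Of its calls, 6.75% were false. In the real comparison 3281 of the 9019 passed, and an adjusted threshold depends on how many probe sets change. The simulated shares therefore do not describe the real comparison. Tables and figures were made with Python 3.11.15, numpy 2.4.6, pandas 2.3.3 and matplotlib 3.10.9. Promoter sequences came from RefSeq with the GRCr8 assembly, were matched by symbol and held 33469 entries. The number of arrays limits the precision, and the p-values measure the spread between cultures of a line.

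The comparison and the gene lists were chosen with earlier results of these data known, and lists are therefore described by counts and medians without a test. Each gene of a list stood for its brightest tested probe set. Genes were named by rule, as the 10 largest differences in each direction among probe sets expressed on all 6 arrays and in the same direction in all 9 ratios of tumor to normal arrays, the 10 largest bounds in each direction among those expressed in one line only, up to 4 members of each list with the largest differences that passed, the genes the study followed by other assays together with Ass1, Asl, Slc7a1 and Arg1, and the 3 lowest p-values of the interaction. Other members named as examples were chosen after their values were seen. Alternatives were other filters, an offset of 16, raising low signals to the threshold, quantile normalization, median centring, other variance models, scan day or chip lot as a random block, the plain linear model of the study's methods, the experiment as a block in the interaction, and leaving out each array.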

Additional observations from a re-analysis of the deposited data

How the results depend on the processing

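Across the alternative filters, offsets, scalings, variance models and blocks, 2800 to 4032 probe sets passed, and with 1 array left out 2113 (without tumor array 10) to 3489 (without tumor array 8), of which 907 to 1559 were higher and 1206 to 1930 lower in tumor cells. The lowest of each range came without tumor array 10. No probe set called both here and under any of these settings changed direction, and no named gene did. With the scan day as a random block 4032 passed, but the estimated correlation within a day was -0.15, and this block does not separate the day from the cell line. Quantile normalization and median centring moved the median of all probe sets to 0.07 and 0.09, and changed the sign of the list medians of the respiratory chain, mitosis, MYC, MXD and ID factors, interferon response and ribosomal proteins, all of which lay within 0.12 of 0. Named calls were lost mainly when an array was left out, 13 without tumor array 10, 10 without tumor array 12, 1 without tumor array 8, and 8, 5 and 9 without normal arrays 2, 4 and 6. The plain linear model lost 8 (Stc2, Aldh3a1, Abca3, Hspa4, Lamp1, Pdpn, Esam, Gadd45a), no filter 4 (Cyp2e1, Aldh3a1, Rpl37a, Gadd45a), raising low signals 3 (Cyp2e1, Aldh3a1, Esam), chip lot as a random block 2 (Cyp2e1, Aldh3a1), all 12 arrays in 1 fit 2 (Stc2, Esam) and no intensity trend 1 (Aldh3a1). The cause was not tested.

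For the change of the difference with arginine, 0 probe sets passed in the fit that leaves out which cultures were partners in an experiment. There were 5 calls when the experiment entered as a block, 1 when low signals were set to the threshold, and 0 to 1 with any 1 array left out, the single call coming without normal array 2 or without arginine-sufficient tumor array 11. The comparison without arginine could not be paired, because its normal and tumor groups share no replicate numbers. Signals near the threshold limit the list of genes seen in one line only, where a bound stands in for the fold.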
